A study of Mus musculus with 18 samples.

Results

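The genes described here are 55 that encode factors of ribosome assembly or other proteins of the nucleolus, chosen by symbol from the 12960 genes of the deposited table. All 55 were present and passed the filter on low values, and they lie on 19 chromosomes. By what their proteins do they were divided into 7 genes of RNA polymerase I transcription, 8 of the small nucleolar ribonucleoproteins (snoRNPs), 20 of small subunit assembly, 14 of large subunit assembly and 6 nucleolar proteins with several roles.

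The 18 RNA-seq libraries came from the spleens of mice and form 6 groups of 3, made of 3 stages of the B lineage (naive, activated and plasma cell) in 2 genotypes. Control mice (Ctrl) carried 1 allele that makes Cre recombinase in B lineage cells, and knockout mice (KO) carried the same Cre allele together with G9afl/fl. Both genotypes thus shared the Cre allele, and cells outside the B lineage of KO mice are expected to keep G9a. Activated B cells (B220+GL7+) and plasma cells (CD138+ with intermediate or low B220) were sorted after 72 h from mice given 50 µg lipopolysaccharide in 100 µl by tail vein. Live cells negative for F4/80, Cd11b and Thy1.2 were taken. Naive B cells were from mice without lipopolysaccharide and were enriched with CD43 beads rather than sorted, so stimulus and isolation changed together with cell type. Each library started from 1000 cells. Ages are not in the labels, nor whether each library of a group is a different animal, so a p-value here speaks only of the scatter among these libraries.

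G9a, the product of Ehmt2, is a histone methyltransferase that writes mono- and dimethyl marks on lysine 9 of histone H3, and the series asks how it shapes expression as B cells differentiate. Ribosomes are built in the nucleolus. RNA polymerase I transcribes the ribosomal RNA precursor, box C/D and box H/ACA snoRNPs methylate and pseudouridylate it, and assembly factors fold, cut and package it into the small and large subunits. B cells that meet a mitogen enlarge and divide, and ribosome production is a known part of that growth. The transcription factor Myc is a known activator of many of these genes.

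Levels are RPKM (reads corrected for gene length and sequencing depth, so comparable between genes per length) after scaling between libraries. Changes are differences on the log2(scaled RPKM + 1) scale, which understates changes of low genes. By estimate, the naive libraries were shallowest with 1.62 to 3.79 M reads, plasma cell libraries had 5.14 to 6.88 M, and activated libraries had 2.66 (KO 3) to 10.71 M. Naive libraries scattered more, with a median SD per gene of 0.369 and 0.388 in Ctrl and KO, against 0.125 to 0.134 in the other 4 groups. The summed level of 6 plasma cell markers rose with the labelled stages. It was 273 ± 20.4 (SD, n = 3) in naive Ctrl, 812 ± 50.6 in activated Ctrl and 9000 ± 513 in plasma cell Ctrl. Among the Ctrl groups each of the 6 had its highest mean in plasma cells. Between naive and activated Ctrl the means of Jchain, Xbp1 and Prdm1 rose. Those of Sdc1 (7.77 and 1.10), Tnfrsf17 (7.24 and 0.455) and Irf4 (76.5 and 44.3) fell. Naive libraries also held red cell RNA (summed level of 2 markers 315 ± 51.1 in Ctrl and 400 ± 119 in KO) and platelet RNA. Monocyte and macrophage markers summed to 55.9 ± 9.13 in naive Ctrl and 16.9 ± 2.44 in activated Ctrl. T cell markers summed to 32.0 ± 25.9 and 6.92 ± 0.505 in the same groups. Ehmt2 itself lay between 16.2 and 17.8 in Ctrl plasma cells, above the 12.3 to 14.7 of KO plasma cells, and overlapped between genotypes in naive and activated cells. It was not called in any cell type by limma (adjusted p = 0.695 to 1.000). Values over the whole gene do not separate deleted exons from the rest, so the deletion was not checked.

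No member was at 0 in any library, and the lowest single value was 1.87, for Bysl in naive Ctrl 3. Per kilobase, Npm1 (nucleophosmin, an abundant nucleolar chaperone) was the most abundant member in activated cells and plasma cells of both genotypes, and Nop10, a small box H/ACA protein, was the most abundant in naive cells. Nop10 measured 183 ± 23.2 in naive Ctrl, where Npm1 measured 145 ± 33.6. The least abundant on average were Npm3, Utp20 and Polr1a, depending on the group. The summed level of the 55 members was 1783 ± 119 in naive Ctrl, 2568 ± 230 in activated Ctrl and 1843 ± 66.1 in plasma cell Ctrl. In KO it was 1957 ± 186, 3434 ± 196 and 2085 ± 45.3 in the same order. The 3 activated KO libraries (3217 to 3599) all lay above the 3 activated Ctrl libraries (2337 to 2797), and the 3 plasma cell KO libraries (2043 to 2133) lay above the 3 plasma cell Ctrl libraries (1768 to 1892). Npm1 alone made up 327 ± 16.1 of the activated Ctrl sum and 454 ± 53.5 of the activated KO sum. In Ctrl the mean was highest in activated cells for 39 members, in plasma cells for 10 and in naive cells for 6, and in KO for 48, 4 and 3. In these bulk samples, fewer cells of a type and less RNA per cell cannot be told apart.

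**Figure D1:**
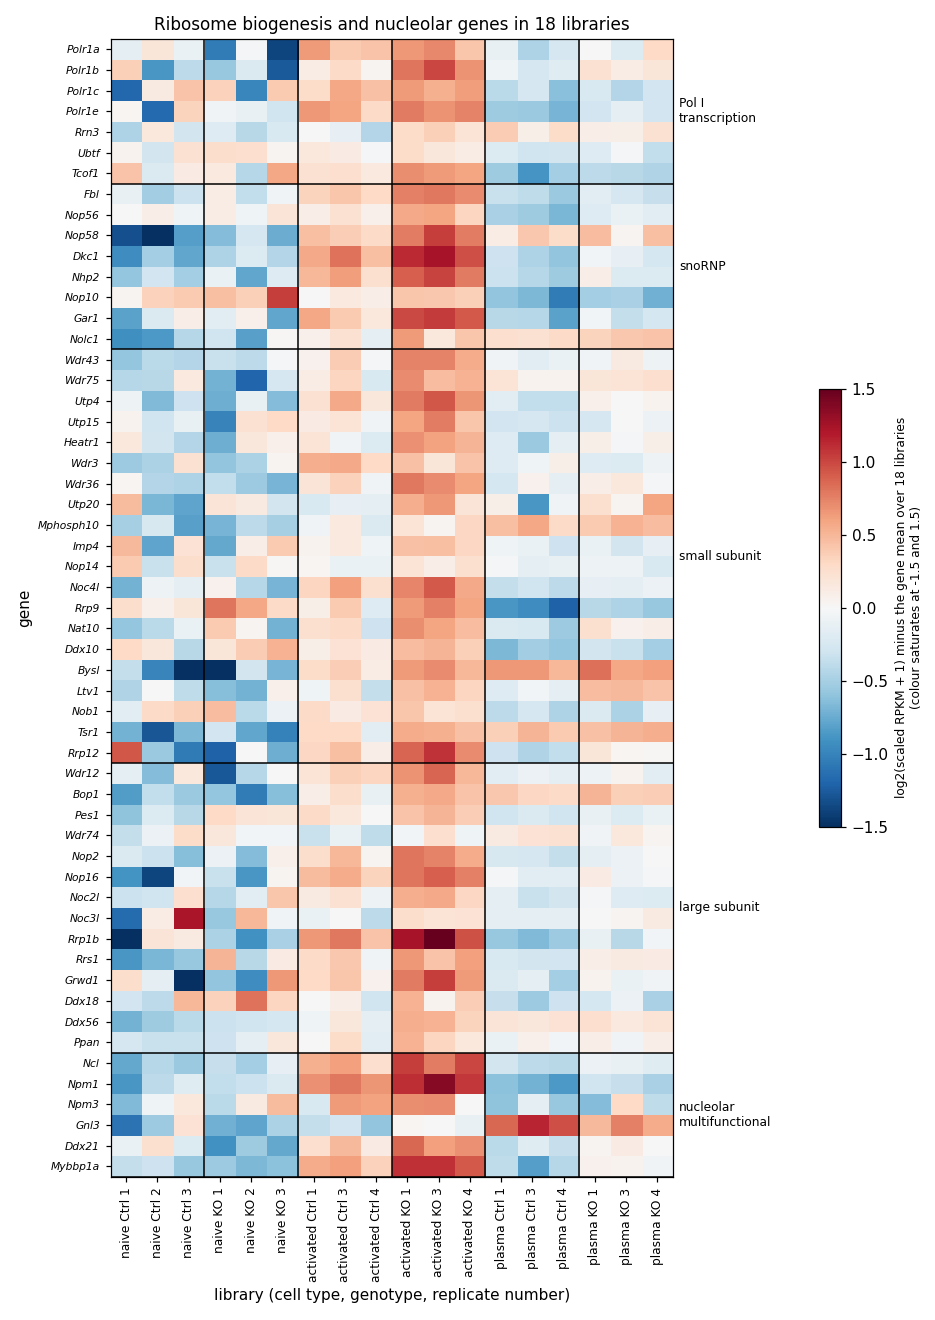
Heat map of the 55 members (rows, grouped by role) in the 18 libraries (columns). Colour is log2(scaled RPKM + 1) minus the gene's mean over all libraries, saturating at -1.5 and 1.5. Red is above and blue below the gene's mean. Most genes are highest in the 3 activated KO libraries, and Gnl3 is highest in plasma cells.

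From naive to activated B cells in Ctrl, members of every role rose. Of the 55, 26 rose and 0 fell (limma, adjusted p under 0.05), where 19% of all 12787 tested genes rose and 39.4% fell. The median change of members was 0.51, against -0.29 over all tested genes. Among roles, 6 of 8 snoRNP genes rose, 8 of 14 large subunit genes, 8 of 20 small subunit genes, 3 of 6 multifunctional proteins and 1 of 7 polymerase I genes. Red cell markers, at a summed level of 315 ± 51.1 in naive Ctrl and 4.44 ± 0.493 in activated Ctrl, changed with this step, and their part in it was not tested. With quantile normalization, which brings the median of all genes from -0.29 to -0.06, the counts were 26 up and 2 down, Nop10 and Wdr74. Of all 12800 genes in that fit 2695 rose and 2861 fell.

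The largest rise was that of Nop58, a core protein of box C/D snoRNPs, which guide ribose methylation. Nop58 was 25.6, 19.8 and 36.5 in naive Ctrl 1, 2 and 3, and 89.9, 84.6 and 79.9 in activated Ctrl 1, 3 and 4. The groups were far apart, with a change of 1.64 (SE 0.18, adjusted p = 1.0e-06). Bysl, a factor of small subunit processing, was 9.49, 5.78 and 1.87 in naive Ctrl and 15.3, 16.4 and 13.6 in activated Ctrl. The naive values of Bysl spread widely, yet all lay below the activated ones (1.45, SE 0.37, adjusted p = 0.003). Dkc1, the pseudouridine synthase of box H/ACA snoRNPs, was 22.8, 31.1 and 25.5 in naive Ctrl and 66.3, 78.8 and 61.0 in activated Ctrl. Its change was 1.35 (SE 0.14, adjusted p = 3.8e-07). Nucleophosmin and nucleolin belong to the same movement. Npm1 rose 2.26-fold in mean level (adjusted p = 1.1e-06) and Ncl, which binds ribosomal RNA precursors, rose 2.1-fold (adjusted p = 2.7e-06). The box C/D partners of Nop58 moved less. Fbl, the methyltransferase of that complex, rose by 0.67 (SE 0.12, adjusted p = 1.9e-04), while Nop56 measured 115 ± 6.78 in naive Ctrl and 125 ± 7.85 in activated Ctrl and was not called. Of the box H/ACA proteins, Dkc1, Nhp2 (0.91) and Gar1 (0.68) rose, and Nop10 was not called, at 183 ± 23.2 and 161 ± 8.85. In the polymerase I group only Polr1e, a subunit of the enzyme, passed the test, by 0.78 (SE 0.26, adjusted p = 0.016), and its groups overlapped. Polr1e lost this call in the fit of the compared libraries (adjusted p = 0.098) and without activated Ctrl 1, activated Ctrl 3 or naive Ctrl 2. With a replicate block Polr1a was called in its place. Rrn3, the initiation factor that links polymerase I to its promoter, measured 21.6 ± 5.15 and 21.5 ± 3.4.

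At the next step of Ctrl, into plasma cells, the direction turned. Of the 55 members 22 fell and 4 rose, where 16.7% of all tested genes fell and 16.1% rose, and the median change of members was -0.43 against -0.03 over all genes. On the RPKM as deposited, whose median over all genes shifts to -0.14, 30 fell and 1 rose, where 2988 and 1547 of all 12800 genes did. With quantile normalization 19 fell and 2 rose, where 1947 and 1850 of all 12800 genes did. In a fit of these 6 libraries alone 34 fell and 6 rose, against 26.2% and 24.1% of all genes. By role, 6 of 8 snoRNP genes fell, 4 of 6 multifunctional proteins, 3 of 7 polymerase I genes, 6 of 20 small subunit genes and 3 of 14 large subunit genes. The red cell marker sum was under 5 in every library of both groups.

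Npm1 fell furthest. It was 319, 345 and 316 in activated Ctrl and 129, 121 and 109 in plasma cell Ctrl, a change of -1.44 (SE 0.13, adjusted p = 6.1e-08). Rrp1b, a large subunit factor, was 17.5, 19.3 and 14.8 in activated Ctrl and 6.89, 6.44 and 7.07 in plasma cell Ctrl (-1.22, SE 0.34, adjusted p = 0.010). The groups of Rrp1b did not overlap, although with quantile normalization its adjusted p was 0.097. Polr1e went from 17.6, 16.8 and 13.4 to 7.17, 7.03 and 6.30 (-1.10, SE 0.26, adjusted p = 0.003), and all plasma cell values lay below all activated ones. Against that movement stood Gnl3 (nucleostemin), a nucleolar GTP-binding protein. Gnl3 was 44.4, 46.4 and 37.4 in activated Ctrl and 104, 127 and 112 in plasma cell Ctrl, so that every plasma cell library was more than 2 times the highest activated one. Its change was 1.40 (SE 0.22, adjusted p = 3.9e-05), and in plasma cell Ctrl its mean of 114 ± 11.4 was next to that of Npm1 (120 ± 10.0). The other members that rose were smaller and less firm. Mphosph10, a small subunit processome protein, went from 28.9, 33.4 and 25.7 to 41.4, 45.6 and 36.9 (0.48, adjusted p = 0.018). Wdr74, a large subunit factor, went from 43.3, 51.1 and 41.6 to 59.9, 63.8 and 64.4 (0.46, adjusted p = 0.016). Rrn3 had a mean of 21.5 ± 3.4 in activated Ctrl and 29.3 ± 3.01 in plasma cell Ctrl (0.44, adjusted p = 0.041). On the RPKM as deposited only Gnl3 kept a call upward, and Mphosph10 and Wdr74 also lost theirs when activated Ctrl 1 or 4 was left out.

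Plasma cells did not simply return to the naive pattern. Between naive and plasma cell Ctrl 12 members were higher and 6 lower, where 24.3% and 44.4% of all tested genes were, with a median change of 0.03 against -0.37 over all genes. This split depends on the scaling, with 8 higher and 11 lower on the RPKM as deposited and 8 higher and 9 lower after quantile normalization. Of all 12800 genes in those fits, 2641 were higher and 6249 lower on the RPKM as deposited, and 3423 and 3430 after quantile normalization. Bysl was 20.1, 20.1 and 18 in plasma cell Ctrl, against 1.87 to 9.49 in naive Ctrl (1.79, SE 0.37, adjusted p = 3.7e-04). Nop58 remained high, at 70.4, 86.8 and 79.5 against 19.8 to 36.5 (1.54, SE 0.18, adjusted p = 8.7e-07). Gnl3 was 26, 38.7 and 66.6 in the naive libraries, all below its plasma cell values (1.46, adjusted p = 1.2e-05). Lower in plasma cells were members of several roles. Rrp9, the U3 snoRNA-binding protein, was 40.4, 35.4 and 38.1 in naive Ctrl and 17.8, 17.0 and 13.8 in plasma cell Ctrl (-1.18, SE 0.15, adjusted p = 2.8e-06). Nop10 was 156, 193 and 200, and then 100, 95.0 and 73.1 (-1.03, SE 0.15, adjusted p = 1.3e-05). Tcof1 (treacle), which supports ribosomal RNA transcription, was 62.1, 39.4 and 50.0, and then 31.6, 24.4 and 32.1 (-0.75, SE 0.19, adjusted p = 0.002). Neither group overlapped the other for these 6 genes. Within 1 complex the members could therefore go opposite ways. Nop58 was higher in plasma cells than in naive cells while its partner Nop56 was lower, at 115 ± 6.78 and 76.7 ± 5.38 (-0.58, SE 0.10, adjusted p = 6.5e-05).

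**Figure D2:**
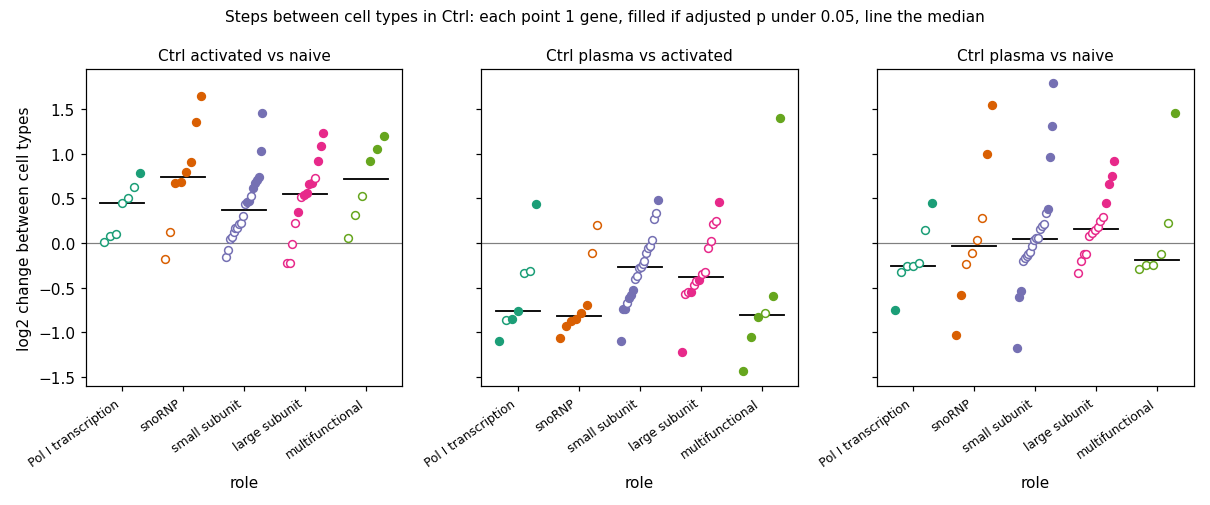
Change on the log2(scaled RPKM + 1) scale for each member in the 3 steps between cell types of Ctrl, by role. Each point is 1 gene, filled where the adjusted p is under 0.05, and the bar is the median of the role. Most snoRNP and multifunctional genes lie above 0 in the first panel and below 0 in the second, and Gnl3, at 1.40, is the highest point of the second panel.

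In KO the same steps called more members. From naive to activated cells 41 rose and 0 fell, where 21.2% and 34.5% of all tested genes did, with a median of 0.77. Of the 26 that rose in Ctrl 25 also rose in KO, the exception being Pes1. Rrp1b was 7.42, 5.24 and 7.39 in naive KO and 26.7, 32.9 and 21.7 in activated KO (1.86, SE 0.34, adjusted p = 2.1e-04). Mybbp1a, a nucleolar protein that binds Myb and takes part in ribosomal RNA processing, was 43.5, 39.6 and 41.4, and then 137, 137 and 121 (1.64, SE 0.12, adjusted p = 4.6e-09). Bysl rose from 2.70, 10.1 and 7.31 to 20.0, 21.0 and 18 (1.56, SE 0.37, adjusted p = 0.002). The activated KO values of all 3 genes lay above the naive KO values. From activated to plasma cells in KO 30 fell and 1 rose, where 17.4% and 15.8% of all tested genes did, with a median of -0.62. On the RPKM as deposited 43 fell and 0 rose, where 2898 and 1680 of all 12800 genes did. With the naive libraries left out, or with the 6 compared libraries alone, 44 fell and 2 rose, against 28.4% of all genes that fell in either fit and 24.6% and 24.4% that rose. Npm1 fell from 430, 515 and 416 to 161, 156 and 142 (-1.56, SE 0.13, adjusted p = 2.1e-08). Rrp1b fell to 9.87, 7.78 and 10.4 (-1.43, SE 0.34, adjusted p = 0.003), and Dkc1 from 98.2, 106 and 87.7 to 43.4, 40.8 and 36.8 (-1.25, SE 0.14, adjusted p = 6.2e-07). None of these groups overlapped. Gnl3 was again the member that rose, from 58.0, 56.8 and 52.5 to 80.3, 97.1 and 84.5 (0.63, SE 0.22, adjusted p = 0.029). That call was lost on the RPKM as deposited, after quantile normalization and without any of 5 of the 6 libraries. Of the 22 members that fell in Ctrl 20 also fell in KO, the others being Polr1a and Wdr3. More calls in KO do not show that the steps differed. The test of that difference is given with the KO effects compared between cell types.

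In naive B cells the genotypes differed at few members and in both directions. The fit of all libraries called 3 members higher and 1 lower in KO, against 2.1% and 5.12% of all tested genes. An unadjusted p under 0.05 was found for 11 of the 55 members and for 3072 of the 12787 tested genes, so the members held no larger share. KO lay above Ctrl in all libraries for 7 members and below for 1, against 4.32% and 7.84% of all genes, and the median change of members was 0.08 against -0.09. Pes1, the scaffold of the PeBoW complex of large subunit assembly (chromosome 11 from 3963975 to 3980004), was 28.6, 38.0 and 32.7 in Ctrl and 54.2, 50.4 and 49.8 in KO. The KO libraries were close together and all above Ctrl (0.63, SE 0.11, adjusted p = 0.004). Rrs1, which brings the 5S ribosomal RNA particle into the large subunit (chromosome 1 from 9545408 to 9547455), was 14.8, 17.0 and 18.6 in Ctrl and 40.4, 20.8 and 30.7 in KO. Its KO values were higher and uneven (0.79, SE 0.18, adjusted p = 0.015). Nop58 (chromosome 1 from 59684961 to 59711510) was 25.6, 19.8 and 36.5 in Ctrl and 41.3, 54.7 and 38.6 in KO (0.72, SE 0.18, adjusted p = 0.024). Here KO 3 was just above Ctrl 3, and the call was lost without Ctrl 2 (adjusted p = 0.059). The RNA helicase Ddx21, which acts in ribosomal RNA transcription and processing (chromosome 10 from 62580247 to 62602298), was the member that fell, from 18.4, 23.6 and 17.0 to 10.1, 13.4 and 11.2 (-0.71, SE 0.15, adjusted p = 0.010). All 4 calls came from the limma fit that shares 1 spread per gene over the cell types. A limma fit of the 6 naive libraries alone called 0 members and 0% of all genes (898 genes at an unadjusted p under 0.05), with adjusted p of 0.672 to 0.698 for these 4. A fit that weights libraries by their scatter also called 0. The red cell marker sum was 284 to 374 in Ctrl and 267 to 495 in KO, which overlap.

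In activated B cells nearly all members were higher in KO than in Ctrl, each by a modest amount. The change was positive for 54 of 55, with a median of 0.40 against -0.02 over all tested genes, and ran from -0.12 (Wdr3) to 0.68 (Polr1b). All 3 KO libraries lay above all 3 Ctrl libraries for 44 members, against 15.3% of all tested genes, and below them for 0, against 16%. The fit of all libraries called 3 members higher and 0 lower, against 0.422% and 1.36% of all genes. An unadjusted p under 0.05 was found for 27 of the 55 members and for 1288 of the 12787 tested genes. A fit of these 6 libraries alone called 35 higher and 0 lower, where it called 5.26% and 6.02% of all genes. By role the 35 were 7 of 8 snoRNP genes, 5 of 6 multifunctional proteins, 12 of 20 small subunit genes, 8 of 14 large subunit genes and 3 of 7 polymerase I genes. A fit without the naive libraries called 42 higher and 0 lower, against 6.84% and 7.62%.

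The 3 genes called in the fit of all libraries came from 3 roles. Mybbp1a (Entrez 18432, protein-coding, chromosome 11 from 72441327 to 72451770, GRCm38) was 94.5, 98.3 and 81.4 in activated Ctrl 1, 3 and 4, and 137, 137 and 121 in activated KO 1, 3 and 4. The groups did not overlap (0.52, SE 0.12, adjusted p = 0.030), and the KO mean was 1.44 times the Ctrl mean. Wdr43, the UTP-A protein of the small subunit processome (Entrez 72515, chromosome 17 from 71616178 to 71659031), was 55.3, 69.5 and 52.4 in Ctrl and 89.2, 89.8 and 78.5 in KO. Its lowest KO library was above its highest Ctrl library (0.54, SE 0.13, adjusted p = 0.031). Ddx56, an RNA helicase of large subunit assembly (Entrez 52513, chromosome 11 from 6257545 to 6269786), was 27.2, 32.3 and 25.7 in Ctrl and 42.0, 41.4 and 36.3 in KO (0.48, SE 0.12, adjusted p = 0.046). The calls did not survive the removal of most single libraries. Leaving out activated Ctrl 1, Ctrl 4, KO 1 or KO 3 ended all 3 calls, with adjusted p up to 0.226 for Mybbp1a and Wdr43 and up to 0.292 for Ddx56, and Ddx56 was not called on the RPKM as deposited or after quantile normalization. In the fit of these 6 libraries their adjusted p-values were 0.008, 0.014 and 0.017.

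**Figure D3:**
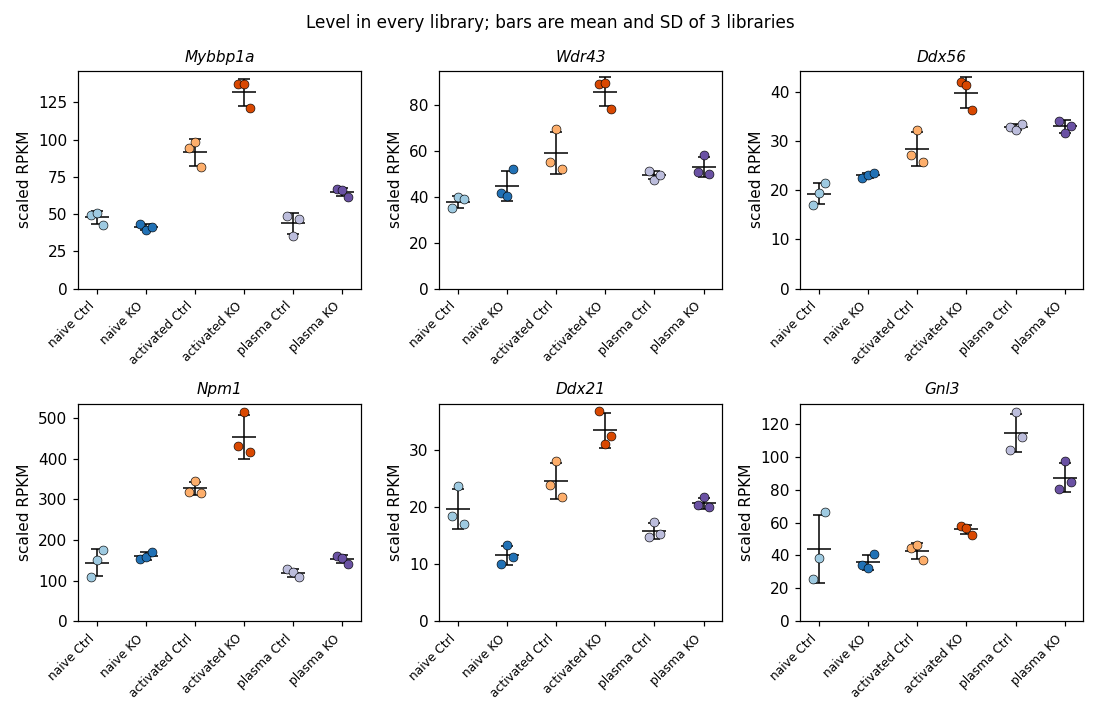
Scaled RPKM of 6 members in every library (points), with the mean and SD of the 3 libraries of each group (bars). The activated KO points of Mybbp1a (121 to 137), Wdr43 (78.5 to 89.8) and Ddx56 (36.3 to 42.0) lie above all activated Ctrl points, and Gnl3 is highest in plasma cell Ctrl.

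The other roles had their own leading genes, none of them called in the fit of all libraries. Nop56 had the smallest p among snoRNP genes, at 122, 134 and 120 in Ctrl and 170, 173 and 143 in KO (0.37, SE 0.10, adjusted p = 0.077). Its box C/D partners Fbl (0.40) and Nop58 (0.49) and the box H/ACA proteins Dkc1 (0.50), Nhp2 (0.44), Gar1 (0.61) and Nop10 (0.31) had KO values above all Ctrl values as well. Nolc1, which chaperones snoRNPs through the nucleolus, overlapped, at 33.8 to 44.2 in Ctrl and 41.8 to 58.9 in KO. Among polymerase I genes Rrn3 led, at 24.4, 22.4 and 17.8 in Ctrl and 29.9, 31.7 and 28.3 in KO (0.47, SE 0.16, adjusted p = 0.193). Polr1b, the second largest subunit of the enzyme, had the largest change of all members, at 16.4, 18.6 and 15.6 against 27.0, 31.1 and 24.7. Its fit over all libraries carried a wide error (0.68, SE 0.26, adjusted p = 0.283), while the fit of these 6 libraries gave an adjusted p of 0.005. The largest subunit Polr1a (12.9 mean in Ctrl), Polr1c, shared with RNA polymerase III, and Ubtf, the factor that marks active ribosomal RNA genes, overlapped between genotypes. Npm1 and Ncl stood apart between genotypes. Npm1 measured 319, 345 and 316 against 430, 515 and 416 (0.47, adjusted p = 0.095), and Ncl 95.6, 101 and 78.3 against 136, 113 and 133 (0.47, adjusted p = 0.074). Wdr3, a UTP-B protein of the small subunit processome, was the exception in sign, at 32.7, 33.0 and 27.4 in Ctrl and 30.3, 25.1 and 29.9 in KO, which overlap. Overlap was also seen for Mphosph10, Noc4l and Nob1 in the small subunit role, for Ppan and Ddx18 in the large subunit role, and for Npm3.

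Within each activated group 1 library sat low across the list. Ctrl 4 was the lowest Ctrl library for 46 of 55 members and Ctrl 3 the highest for 45, and KO 4 was the lowest KO library for 42. Without any 1 of the 6 libraries the fit of the remaining ones called 9 to 34 members higher, with 9 left without Ctrl 1 or Ctrl 4 and 10 without KO 1. The share of all genes called in these fits is not given here. The median change of the members stayed between 0.33 and 0.46 under all 22 alternatives. Depth was 6.71 to 7.60 M reads in Ctrl, and 10.71, 2.66 and 10.55 M in KO 1, 3 and 4.

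Several marker lists moved with the activated comparison. The 6 plasma cell markers summed to 754 to 847 in activated Ctrl and 337 to 436 in activated KO, where Jchain (-1.36, adjusted p = 4.0e-06) and Xbp1 (-0.96, adjusted p = 0.002) fell. Sdc1, which encodes the CD138 used to sort plasma cells, was near the floor in both, at 1.10 ± 0.316 and 0.578 ± 0.107. Of the B cell markers Cd79a (-0.56, adjusted p = 0.003) and Cd79b (-0.58, adjusted p = 0.003), the signalling chains of the B cell receptor, fell. Red cell markers (2 of 6 listed were in the table) summed to 4.02 to 4.98 and 14.7 to 23.0, but went opposite ways, with Hbb-bs at 3.97 ± 0.326 and 19.1 ± 4.09 and Hba-a2 at 0.471 ± 0.369 and 0.154 ± 0.133. T cell markers (3 of 7) summed to 6.40 to 7.41 and 10.8 to 12.8, most of it Lck, and platelet markers (3 of 4) to 1.24 to 1.37 and 0.138 to 0.325. The 4 dendritic cell markers summed to 29.1 to 35.4 and 36.4 to 40.7, most of it Flt3 (31.1 ± 3.2 and 38.2 ± 2.35). The means of Siglech (0.313 and 0.126), Zbtb46 (0.382 and 0.205) and Xcr1 (0.779 and 0.642) were near the floor and lower in KO. Prf1, the NK cell marker in the table (1 of 3), was 1.11 to 1.19 and 2.87 to 4.49. Cd3e was at 0 in 2 of the 3 activated Ctrl libraries and at most 0.672 in KO. The part of these shifts in the members' change was not tested.

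**Figure D4:**
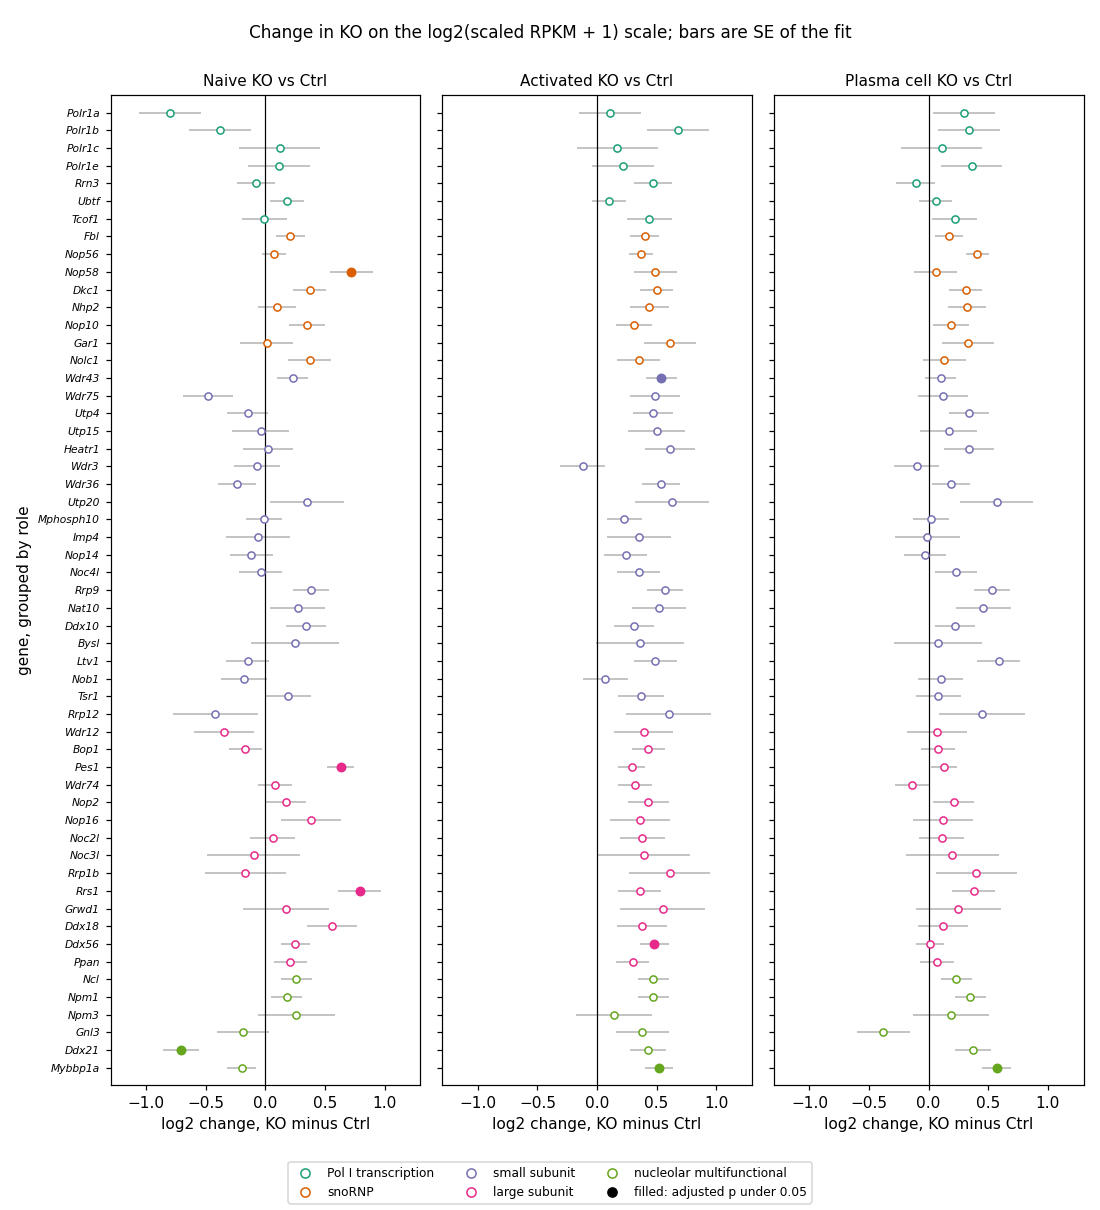
Change in KO against Ctrl for the 55 members at the naive, activated and plasma cell stage, on the log2(scaled RPKM + 1) scale with the SE of the fit. Points are coloured by role and filled where the adjusted p is under 0.05. In activated cells every point but Wdr3 lies right of 0, while in naive cells the points scatter on both sides.

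The promoters of these genes were compared because the members moved together in activated KO cells and because CACGTG, the E-box bound by Myc with its partner Max, is a known element of such genes. RefSeq promoters on GRCm38.p6, from 250 bases before to 50 after the start, were found for 48 of the 55 members. CACGTG reads the same on both strands, and 11 of the 48 windows (22.9%) held it, against 11.6% of the 10223 tested genes with a window and 8.09% of all 27025 windows. TATAAA, searched on both strands and unable to overlap a CACGTG, was in 3 of the 48 (6.25%), against 9.7% and 15.7%. TATAAA holds no C or G, and the base composition of the windows was not compared. These shares therefore cannot separate the motif from composition. The windows around the motif are shown for Mybbp1a and Wdr43, called in activated cells, and for Pes1, called in naive cells. They are also shown for Rrn3, the member that holds the motif at 2 places. All are on the plus strand, 5′ to 3′, with the motif in capitals.
Mybbp1a, chr11:72441347-72441376: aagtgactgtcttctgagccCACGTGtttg
Wdr43, chr17:71616220-71616249: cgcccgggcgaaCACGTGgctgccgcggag
Pes1, chr11:3963965-3963994: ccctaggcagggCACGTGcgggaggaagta
Rrn3, chr16:13780472-13780501: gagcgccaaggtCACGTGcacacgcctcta
Rrn3, chr16:13780639-13780668: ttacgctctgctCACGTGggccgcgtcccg
The motif began at base 41, 18 and 3 after the start in Mybbp1a, Wdr43 and Pes1, and 215 and 48 bases before it in Rrn3. These distances are from the RefSeq promoter start, which for Wdr43 lies downstream of the gene start printed above (71616178). The other members with it were Grwd1, Imp4, Ltv1, Nop2, Tsr1, Utp20 and Utp4. In activated cells the 11 members with the motif had a median KO change of 0.47 (0.29 to 0.63) and all 11 stood apart between genotypes. The 37 without it had a median of 0.38 (-0.12 to 0.68) with 26 standing apart. At the Ctrl step from naive to activated cells the medians were 0.62 (0.01 to 1.03) with the motif and 0.45 (-0.22 to 1.64) without it. Of the other members called between genotypes, Ddx56, Nop58 and Ddx21 had none in their windows, and Rrs1 had no window. A match says only that these letters are there. The KO change of other tested genes with the motif was not compared, and the part of the motif in the members' change was not tested.

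Myc, whose product binds that motif, was highest in naive Ctrl and lowest in plasma cell Ctrl. It was 93.8, 89.3 and 85.0 in naive Ctrl, 30.6, 32.2 and 31.6 in activated Ctrl and 8.96, 10.6 and 11.3 in plasma cell Ctrl, so it fell at both steps (-1.48, adjusted p = 8.9e-08, and -1.53, adjusted p = 3.1e-08). The members' summed level was highest in the middle group, activated Ctrl. The part of Myc in the members' levels was not tested. Between genotypes Myc was 30.6 to 32.2 in activated Ctrl and 38.3, 32.9 and 41.0 in activated KO, which did not overlap but was not called (0.24, SE 0.13, adjusted p = 0.657). In plasma cells it was 18.4, 19.0 and 16.6 in KO, above all Ctrl libraries, and was called higher (0.75, SE 0.13, adjusted p = 0.008).

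In plasma cells the difference between genotypes had the same sign for most members and was smaller. The change was positive for 49 of 55, with a median of 0.19 against 0.00 over all genes, and KO lay above Ctrl in all libraries for 27 members and below for 1, against 11.2% and 13.6% of all tested genes. The fit of all libraries called 1 member higher and 0 lower, against 0.438% and 0.172% of all genes. That gene was Mybbp1a, at 48.6, 35.6 and 47.0 in Ctrl and 66.6, 66.3 and 61.6 in KO (0.57, SE 0.12, adjusted p = 0.031). Its KO values lay well above the Ctrl values, but only the removal of plasma cell Ctrl 1 spared the call, and each other removal ended it, with an adjusted p of at most 0.227. The fit of these 6 libraries called 10 higher and 1 lower, against 2.38% and 2.73% of all genes, and the fit without the naive libraries 8 and 1, against 3.15% and 3.01%. Beside Mybbp1a the members called higher in the fit of the plasma cell libraries alone were Nop56, Npm1, Ddx21, the large subunit factor Rrs1 and 5 of the 20 small subunit genes, Ltv1, Nat10, Rrp12, Rrp9 and Utp4. Ltv1, which helps the small subunit leave the nucleus, differed most, at 40.5, 44.8 and 41.9 in Ctrl and 64.4, 65.4 and 62.8 in KO (0.59, SE 0.18, adjusted p = 0.264 in the fit of all libraries and 0.001 in that of these 6). The 2 groups were far apart. Leaving out any 1 of the 6 libraries from that fit left 2 to 7 members called, with 2 left without KO 1. The share of all genes called in those fits is not given here.

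Of the 6 members with a negative change, Gnl3 was the one whose groups stood apart. It was 104, 127 and 112 in plasma cell Ctrl and 80.3, 97.1 and 84.5 in plasma cell KO, so that all KO values lay below all Ctrl values. Its change was -0.38 (SE 0.22, adjusted p = 1.000) in the fit of all libraries, which includes its uneven naive values (26, 38.7 and 66.6 in Ctrl), and its adjusted p was 0.042 in the fit of the plasma cell libraries. With 1 library left out of that fit, the call held only without KO 3. In activated cells the same gene was 44.4, 46.4 and 37.4 in Ctrl and 58.0, 56.8 and 52.5 in KO, with KO above Ctrl. Wdr43 and Ddx56, called in activated cells, overlapped between genotypes in plasma cells, at 47.6 to 51.2 against 50.2 to 58.1 and at 32.3 to 33.5 against 31.7 to 34.2.

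Marker lists moved with the plasma cell comparison as well. The 3 T cell markers in the table summed to 1.31 to 2.18 in Ctrl and 8.17 to 12.2 in KO. Of these Cd3e was called higher (0.0767 ± 0.0667 against 8.71 ± 1.49, adjusted p = 0.001), while Cd4 (0.0645 ± 0.057 and 0.0559 ± 0.0156) and Lck (1.59 ± 0.485 and 1.54 ± 0.562) overlapped. The B cell marker Cd79a was lower in KO (-0.82, adjusted p = 6.5e-05). Plasma cell markers summed to 8500 to 9530 and 7830 to 8800, which overlap, with Jchain (6020 ± 321 and 5870 ± 364) the largest part. Xbp1 was lower in every KO library (2270 to 2640 in Ctrl and 1780 to 2030 in KO). So were Sdc1 (163 to 188 and 135 to 146) and Tnfrsf17 (106 to 139 and 74.7 to 75.7). Jchain, Prdm1 and Irf4 overlapped between genotypes. Red cell markers were 0 to 0.764 in Ctrl and 0.635 to 45.4 in KO. The part of these shifts in the members' change was not tested.

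Whether the KO effect differed between cell types was tested as a difference of differences over all libraries. From naive to activated cells 2 members had a more positive KO effect and 0 a more negative one, against 1.35% and 1.27% of all genes. An unadjusted p under 0.05 was found for 13 of the 55 members and for 2179 of the 12787 tested genes. The median difference was 0.29 over members and 0.09 over all genes. Ddx21 was lower in KO in naive cells and stood higher in activated cells, at 23.8, 28.0 and 21.7 in activated Ctrl and 36.7, 30.9 and 32.4 in activated KO. The difference was 1.15 (SE 0.21, adjusted p = 0.010) and each of the 12 single removals kept it past the threshold, with 0.036 the highest adjusted p. Mybbp1a was 49.7, 51 and 42.8 in naive Ctrl and 43.5, 39.6 and 41.4 in naive KO, which overlap, beside its higher values in activated KO. Its difference was 0.72 (SE 0.17, adjusted p = 0.031), and removing any activated library other than KO 4 ended the call, with an adjusted p of at most 0.10. In a fit of the 12 libraries of these cell types the adjusted p-values were 0.079 for Ddx21 and 0.099 for Mybbp1a, and 0 members were called, against 0.0626% of all genes more positive and 0.125% more negative.

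From activated to plasma cells the fit of all libraries called 0 members in either direction, against 0.156% of all genes more positive and 0% more negative. An unadjusted p under 0.05 was found for 416 of the 12787 tested genes and for 5 of the 55 members. These 5 members were Ddx56 (-0.47), Rrn3 (-0.58), Gnl3 (-0.76), Wdr43 (-0.44) and Wdr74 (-0.46), all with a less positive effect in plasma cells. The median difference of members was -0.21 against 0.01 over all genes. In a fit of the 12 activated and plasma cell libraries Gnl3 alone was called (adjusted p = 0.010), with a more negative effect, where 0.375% of all genes had one and 1.25% a more positive one. Gnl3 thus had KO values above Ctrl in activated cells and below Ctrl in plasma cells, in every library. A fit weighting libraries by their scatter called all 5 of these genes.

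A wider list of assembly factors, polymerase I cofactors and exosome subunits that are not among the 55 gave 107 tested genes, with 6 of 9 listed polymerase I genes and every listed gene of the other groups among them. In activated cells 1 of the 107 was called higher in KO and 0 lower, where 54 and 174 of all 12787 tested genes were. The median change of the 107 was 0.24, against -0.02 over all genes. Of the 107, 57 stood apart upward and 2 downward, against 15.3% and 16% of all genes. The called gene was Rpf2, the partner of Rrs1 in placing the 5S particle, at 36.8 ± 6.53 in Ctrl and 66.0 ± 8.45 in KO (0.83, SE 0.17, adjusted p = 0.011). In the fit of the activated libraries alone 21 of the 107 were called higher and 0 lower, where 672 and 770 of all 12787 genes were. In plasma cells 0 of the 107 were called, where 56 of all 12787 genes were higher and 22 lower. An unadjusted p under 0.05 was found for 4 of the 107 and for 750 of all genes. The fit of those libraries alone called 5 higher and 0 lower, where it called 304 and 349 of all genes. In naive cells 5 were higher, among them Pwp2 (0.85) and Pno1 (0.77) of the small subunit and the exosome subunit Exosc3 (0.52), and 2 were lower, Las1l (-0.67) and Pak1ip1 (-0.55), against 2.1% and 5.12% of all genes. In the fit of the naive libraries alone 0 of the 107 were called, with adjusted p of 0.682 to 0.698 for the 5 named. In the Ctrl step from naive to activated cells 27 of the 107 rose and 11 fell, against 19% and 39.4% of all genes, with Mphosph6 (2.06), Pno1 (1.56) and Exosc8 (1.14) up and Taf1c (-0.99), Mdn1 (-0.98) and Pak1ip1 (-0.68) down. From activated to plasma cells 3 rose, Las1l (0.78), Riok1 (0.69) and Utp23 (0.55), and 17 fell, among them Nip7 (-0.82), Exosc8 (-0.78) and Exosc6 (-0.75). Of all genes 16.1% rose and 16.7% fell at that step, so the share that fell was near the background. In the fit of the compared libraries alone 9 of the 107 rose and 50 fell, against 24.1% and 26.2% of all genes.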

How the data were processed

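RNA of 18 libraries was read as SMART-seq v4 cDNA with Nextera XT, per the labels' protocols. The authors deposited RPKM per gene for 12960 genes they called detected. Reads were aligned with STAR to mm10, per the submitters' processing notes. Versions, gene models, counter and detection criterion: not given in the sources used here. RPKM hold no counts, so depth was estimated from the smallest steps between low values; 2 naive Ctrl libraries had unclear steps. SMART-seq has no molecular identifiers, so amplification adds error that depth does not show.

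Libraries were scaled by median ratios over 8012 genes above 1 RPKM in all of them (factors 0.903 to 1.07). Genes with a mean of at least 1 in some group were tested (12787, leaving 173 out) on log2(scaled RPKM + 1) with limma 3.58.1 (R 4.3.3; lmFit and eBayes with trend, two-sided, 1 mean per group, all libraries), with Benjamini-Hochberg adjustment over all tested genes and a threshold of 0.05, in 10 comparisons. The script was first tested on simulated data. Groups come from the labels; no replicate was merged. Tables and plots used pandas 2.3.3, matplotlib 3.10.9 and numpy 2.4.6 under Python 3.11.15. Gene positions are GRCm38, promoters RefSeq GRCm38.p6.

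The members, lists and tests were chosen with earlier results of these data known. Genes are named where called between genotypes, among the top 3 per direction of each step, by the smallest adjusted p of each role in activated cells, or where the genotype effect differed between cell types; other genes were named after their values were seen. Alternatives were the RPKM as deposited, quantile normalization, a pseudocount of 0.1, no filter, a filter at 5 RPKM, only the libraries compared, library weights, a replicate block and leaving out each library. Fits without the naive libraries, and of the compared libraries with a block or less 1 library, were added after seeing the data.

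Some replicate numbers are shared between groups. Deviations of same-numbered libraries from their group means were correlated to check for pairing, which gave -0.212 to 0.312. Libraries of different numbers were not correlated, so this check cannot decide whether shared numbers mark a pair. The fits treated the libraries as unpaired, except with a replicate block. The driver of the Cre allele and the summed B cell markers are not reported here.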

Additional observations from a re-analysis of the deposited data

Results flagged for a closer look

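The effect of the knockout on Ddx21 differed between activated and naive B cells by 1.15 on the log2 scale, by limma's test of the difference itself (adjusted p = 0.010). That on Mybbp1a differed by 0.72 in the same test (adjusted p = 0.031). Neither passed in a fit of the 12 libraries of these cell types alone, with adjusted p of 0.079 and 0.099.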

How the results depend on the processing

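The number of members called changed with library weights and with the libraries that entered the fit. In naive cells the 4 calls between genotypes became 0 with library weights, in the naive libraries alone and there with a replicate block, were 4 to 8 with 1 library left out (8 without KO 2), and stayed 0 in the naive libraries less 1. In activated cells the 3 calls became 5 with quantile normalization, 46 with weights, 35 in the activated libraries alone, 42 without the naive libraries and 39 in the activated libraries with a replicate block. With 1 library left out they were 0 to 3, and 9 to 34 in the activated libraries alone (21 without KO 3 and 30 without KO 4). In plasma cells the 1 call became 2 on the RPKM as deposited and 2 with quantile normalization (Mybbp1a and Nop56), 17 with weights, 11 in the plasma cell libraries alone, 9 without the naive libraries and 13 with a replicate block there. With 1 library left out it was 0 to 1, and 2 to 7 in the plasma cell libraries alone. For the Ctrl step from activated to plasma cells, 26 calls became 44, 40 and 41 with weights, with its own libraries and without the naive libraries. The 2 differences of the KO effect from naive to activated cells became 0 with weights and 0 with their own libraries, and 1 to 6 with 1 library left out (6 without naive KO 2). The 0 from activated to plasma cells became 5 with weights, 1 with their own libraries and 1 without the naive libraries. Calls over all 12787 genes moved as well. In the activated libraries alone 672 genes were higher and 770 lower, against 54 and 174 in the fit of all libraries. In the plasma cell libraries alone 304 and 349 were, against 56 and 22. For weights, replicate blocks and single left-out libraries the calls over all genes are not given here. The member counts under those settings therefore do not speak of the members alone. The cause of these changes was not tested.

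For the other comparisons the total of both directions stayed within 1.5 times under the alternatives run. Between naive and plasma cell Ctrl, the 12 higher and 6 lower became 8 and 11 on the RPKM as deposited, 8 and 9 with quantile normalization and 9 and 10 without naive Ctrl 1. Over all 12787 genes, quantile normalization changed the calls in naive cells from 269 higher and 655 lower to 417 and 379. Ehmt2, called under these alternatives only in plasma cells with weights (adjusted p = 0.049), turned to 0.12 in naive cells without Ctrl 1 (-0.39 without KO 2), and to -0.07 and -0.01 in activated cells without Ctrl 3 and without KO 1. With the replicate block in the fit of all libraries, 4 members were called in activated cells, 6 in naive cells and 1 in plasma cells, and Ddx56 lost its call in activated cells. Whether shared numbers pair these libraries is not known. Naive libraries were the shallowest by group and scattered most; the part of this in their calls was not tested.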
